A study of Caenorhabditis elegans with 16 samples.

Results

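The comparison described here asks which transcripts changed when the transcription factor DAF-16 was removed from *ets-4* mutant *C. elegans* kept at 20 °C. The libraries labelled *daf-16; ets-4*, whose animals carry *daf-16(mu86)* on chromosome I together with *ets-4(rrr16)* on chromosome X, are called the *daf-16* double mutant below. They were set against the libraries labelled *ets-4*, whose animals carry *ets-4(rrr16)* alone, with the same-numbered replicates paired. These are 4 of the 16 libraries of the series, and all 20447 genes of the count table were used. By their labels both groups carry *ets-4(rrr16)*, so the comparison concerns *daf-16* on that background and not in wild-type animals. Libraries labelled *pqm-1; ets-4*, with *pqm-1(ok485)* on chromosome II beside the same *ets-4* allele (the *pqm-1* double mutant), and libraries of wild type N2 (wt) at 20 °C served to estimate the spread and to show levels, and libraries of the same strains after 24 h at 4 °C are used for one further comparison.

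Each library was made from whole animals, about 1000 of them, collected on day 1 of adulthood from plates with OP50 bacteria, and each strain had 2 biological replicates at each temperature. The animals of the 4 °C libraries had first been adapted for 2 h at 10 °C. Total counts were 32046029 and 48770269 in *daf-16* double mutants and 32125748 and 43330789 in *ets-4*, so 3 reads correspond to 0.0579 to 0.0947 counts per 1000000 (CPM) in these 4 libraries. CPM values below are counts divided by the TMM-normalized library size. They give the level of a transcript relative to the others of its library, and they are compared between libraries and not between genes.

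DAF-16 is the FOXO transcription factor of the nematode insulin pathway. Signalling from the insulin receptor DAF-2 through AGE-1 and the AKT kinases keeps DAF-16 in the cytoplasm. When that signalling falls, DAF-16 enters the nucleus and activates genes for stress defence, metabolism and immunity. Well-known targets include *sod-3*, *mtl-1* and *lys-7*, and a second group of genes is repressed, mostly indirectly, when DAF-16 is active. ETS-4 is an ETS-domain transcription factor that acts in the intestine, and PQM-1 is a zinc finger protein that shares some of the physiology of DAF-16.

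The mutated genes were examined first. The *daf-16* transcript (WBGene00000912, chromosome I, 10750498 to 10776703, WBcel235) was at 108 and 172 CPM in *daf-16* double mutants and 163 and 188 CPM in *ets-4*. Replicate 1 of the double mutant was the lowest of these libraries, and its replicate 2 lay between the *ets-4* replicates. The fall by 0.33 on the log2 scale did not pass the test (standard error 0.16, adjusted p = 0.269 from edgeR). At 4 °C the same transcript was at 105 and 114 CPM in *daf-16* double mutants and 250 and 226 CPM in *ets-4*, and fell by 1.11 (adjusted p = 0.000214 from edgeR). Counts per gene do not show from which part of *daf-16* the reads came, so they check the deletion only in part.

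The *ets-4* transcript (chromosome X, 6518883 to 6522667) was at 85.5 and 183 CPM in *daf-16* double mutants and 76.9 and 163 CPM in *ets-4*. The libraries labelled *pqm-1* double mutant had 109 and 196 CPM, and wt had 25.8 and 26.1 CPM. All 6 libraries labelled with the mutant allele were thus above wt at 20 °C. At 4 °C the order was the opposite, with 7.42 and 12.5 CPM in *daf-16* double mutants, 4.41 and 8.84 CPM in *ets-4*, 11.6 and 11.7 CPM in the *pqm-1* double mutant and 60.8 and 85.1 CPM in wt. The difference between the *daf-16* double mutant and *ets-4* was 0.18 on the log2 scale (adjusted p = 0.749 from edgeR). The *pqm-1* transcript was at 27.4 and 44.2 CPM in *daf-16* double mutants and 20.4 and 33.5 CPM in *ets-4*, a difference of 0.43 (adjusted p = 0.232 from edgeR). The *ets-4* level in the mutant libraries at 20 °C, and the *daf-16* level in replicate 2 of the *daf-16* double mutant, thus do not bear out their labels, and whether the labels at 20 °C are right could not be settled from counts per gene. Strain names below stand for the libraries labelled so, and every direction at 20 °C rests on those labels.

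The libraries labelled *daf-16; ets-4* showed many rises in genes with low levels and fewer falls, among them those of the DAF-16 targets *lys-7*, *mtl-1* and *sod-3*. With edgeR's quasi-likelihood test over the 15405 genes that passed the expression filter, 562 genes were higher in the *daf-16* double mutant (3.65% of the genes tested) and 107 were lower (0.695%), at an adjusted p under 0.05 in a fit that took the replicate number as a block. The median log2 fold change was 2.33 over the genes that rose and -0.71 over those that fell, against 0.01 over all genes tested. The median level of the 562 genes was 2.98 and 4.59 CPM in *daf-16* double mutants and 0.505 and 1.11 CPM in *ets-4*. The 107 genes were more abundant, with medians of 17.8 and 17.4 CPM in *daf-16* double mutants and 28.3 and 27.1 CPM in *ets-4*. Both double mutant libraries were above both *ets-4* libraries for 555 of the 562 genes and below them for 101 of the 107. Over all genes tested, the same held for 23.9% and 25.9%.

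By the study's own rule, a change of at least 2-fold in both replicate pairs after adding a pseudocount of 8, 951 of the 20447 genes were higher (4.65%) and 39 were lower (0.191%). The rule carries no p. Replicate pair 1 alone gave 1161 genes up and 183 down, and pair 2 alone 1350 up and 91 down. Only 3 genes changed 2-fold in opposite directions in the pairs. A total of 399 rises and 29 falls met both the rule and the edgeR test.

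The edgeR counts rested on the pairing of replicates and on the *ets-4* libraries. Without the replicate block, edgeR called 1 gene up and 3 down, with 1585 genes at an unadjusted p under 0.05, against 3712 with the block. Without *ets-4* replicate 1, 1 gene was up and 5 were down, and without *ets-4* replicate 2, 5 were up and 10 down. Without replicate 2 of the *daf-16* double mutant, 1311 were up and 976 down, and without its replicate 1, 607 were up and 88 down. The 4 genes called without the block were *C32E8.9*, *col-135*, *clec-222* and *T19H12.6*, of which *clec-222* and *T19H12.6* were named after their values were seen.

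**Figure D1:**
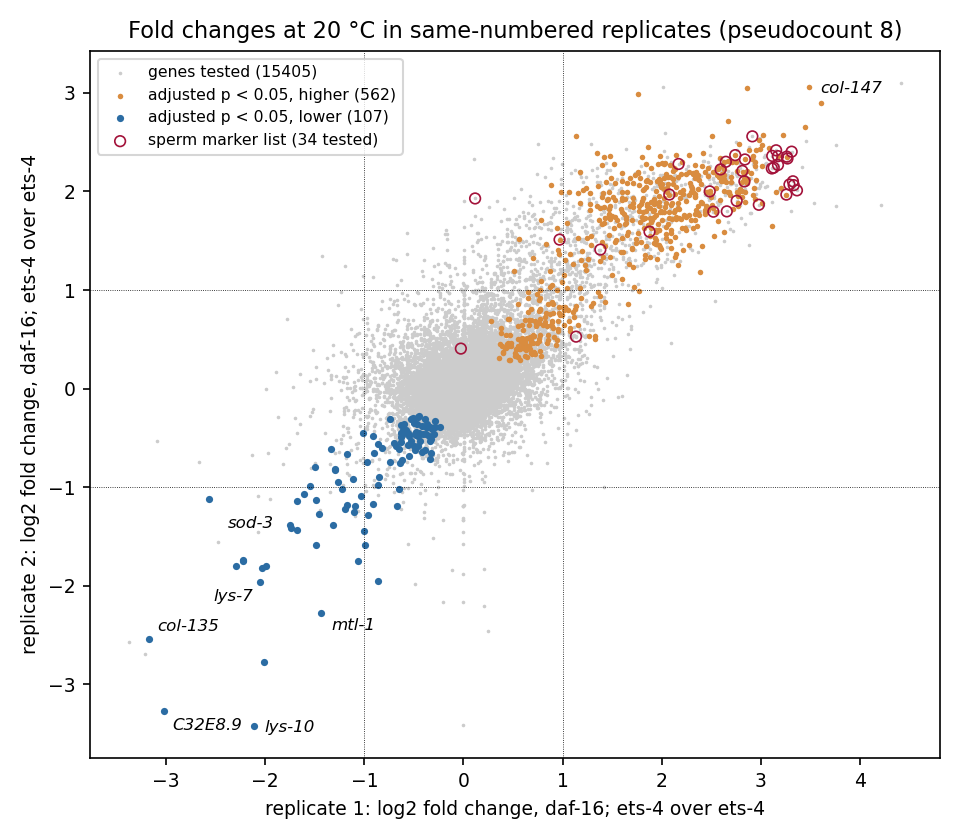
Each point is a gene, with its log2 fold change (*daf-16* double mutant over *ets-4*, pseudocount 8) in replicate pair 1 on the x axis and in pair 2 on the y axis. Orange points are the 562 genes that passed edgeR's test as higher, blue points the 107 that passed as lower, open red circles the 34 sperm marker genes tested, and dotted lines mark 2-fold. Falls and rises lie along the diagonal, and *C32E8.9*, *col-135* and *lys-7* are among the genes farthest down in both pairs.

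The known targets of DAF-16 fell unevenly. A list of 40 genes described as activated by DAF-16 had 35 members tested, of which 7 were lower in the *daf-16* double mutant, 2 were higher and 26 did not pass. The 20% called lower compares with 0.695% over all genes, and the 5.71% called higher with 3.65%. The median of the list was nevertheless -0.04 on the log2 scale, close to the 0.01 over all genes, since most members hardly differed. At 4 °C, 12 of the 35 tested members were lower and 1 was higher, where 2.11% of all genes tested were lower and 1.74% higher.

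The steepest fall of the list was in *mtl-1*, a metallothionein that binds metal ions (WBGene00003473, chromosome V, 6691371 to 6691863). It was at 0.0933 and 0.174 CPM in the *daf-16* double mutant, from 3 and 9 counts, and 0.600 and 1.61 CPM in *ets-4*, from 19 and 72 counts. The groups did not overlap, but the gene was near the detection limit in the double mutant. Its log2 fold change was -2.95 (standard error 0.49, adjusted p = 0.0245 from edgeR).

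The lysozyme gene *lys-7*, which acts in defence against bacteria, was the most abundant of the strong falls (WBGene00003096, chromosome V, 3481432 to 3482600). It was at 43.4 and 75.9 CPM in *daf-16* double mutants and 184 and 305 CPM in *ets-4*. Levels were 181 and 313 CPM in the *pqm-1* double mutant and 125 and 155 CPM in wt, so both *daf-16* double mutant libraries were below all the others. The log2 fold change was -2.02 (standard error 0.14, adjusted p = 0.00202 from edgeR). The call held with each of the 4 compared libraries left out, and was lost without the block (adjusted p = 0.467 from edgeR).

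The mitochondrial superoxide dismutase gene *sod-3* (chromosome X, 17092753 to 17094306) was at 1.49 and 1.37 CPM in *daf-16* double mutants and 5.56 and 4.07 CPM in *ets-4*. Levels in the *pqm-1* double mutant were 2.90 and 2.92 CPM, and those in wt 1.98 and 3.15 CPM. The *ets-4* libraries were the highest and the *daf-16* double mutant the lowest, with no overlap between them. The fall was -1.73 on the log2 scale (standard error 0.28, adjusted p = 0.0245 from edgeR).

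The other 4 falls of the list were smaller. The gene *far-3*, which encodes a fatty acid and retinol binding protein, was at 1.99 and 4.86 CPM in *daf-16* double mutants and 6.91 and 11.2 CPM in *ets-4* (log2 fold change -1.42, adjusted p = 0.0245 from edgeR). The gluconeogenic enzyme gene *pck-1* was at 93.1 and 111 CPM in *daf-16* double mutants and 178 and 160 CPM in *ets-4* (-0.71, adjusted p = 0.0204 from edgeR). The saposin-like gene *spp-1* changed by -0.58 and the small heat shock protein gene *sip-1* by -0.54 (adjusted p = 0.0274 and 0.0384 from edgeR). In all 4 genes both double mutant libraries were below their same-numbered *ets-4* library. Without *ets-4* replicate 1 or 2, *lys-7* was the only member of the list whose fall was called in both cases.

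**Figure D2:**
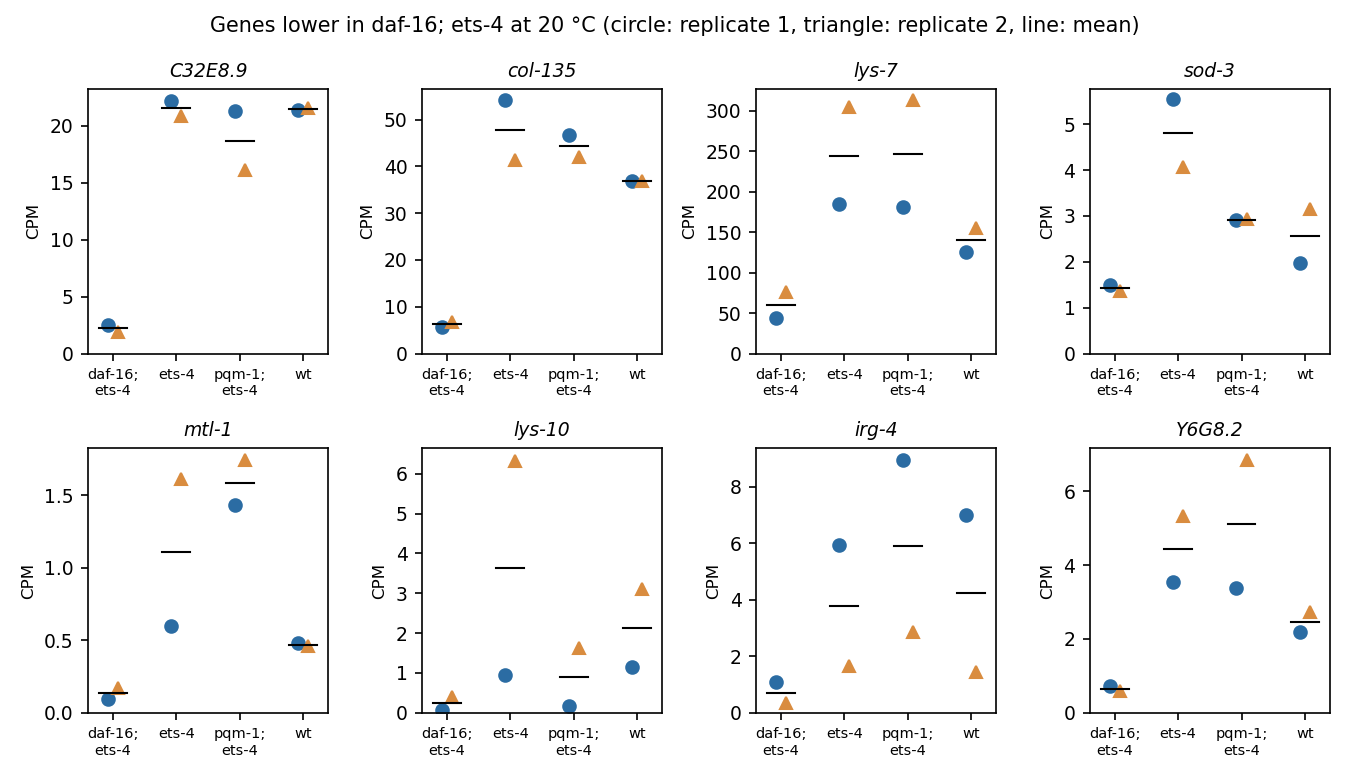
CPM at 20 °C (y axis, from 0) of 8 genes that were lower in the *daf-16* double mutant, in the *daf-16* double mutant, *ets-4*, the *pqm-1* double mutant and wt from left to right, with circles for replicate 1, triangles for replicate 2 and lines for the mean of both. For *C32E8.9* the *daf-16* double mutant sits at 2.52 and 1.93 CPM, with all 6 other libraries between 16 and 22.2 CPM.

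Against the direction of the list's name, *fat-7* and *thn-2* rose. The stearoyl-CoA desaturase gene *fat-7* was at 150 and 383 CPM in *daf-16* double mutants and 62.4 and 221 CPM in *ets-4* (log2 fold change 1.03, standard error 0.17, adjusted p = 0.0310 from edgeR). Each double mutant library was above its same-numbered partner, but the groups overlapped, because replicate 2 was the higher in both. The thaumatin-like gene *thn-2* was at 51.6 and 58.7 CPM in *daf-16* double mutants and 34 and 45.7 CPM in *ets-4* (0.50, adjusted p = 0.0315 from edgeR). Members that hardly differed included the second metallothionein gene *mtl-2* (0.03), the trehalose synthase gene *tps-1* (-0.02) and the catalase gene *ctl-2* (0.14).

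Of 18 tested genes described as repressed by DAF-16, 1 was higher (5.56%), 1 was lower (5.56%) and 16 did not pass, with a median of -0.19. Over all genes tested 3.65% were higher and 0.695% lower, and each share of the list rests on 1 gene. The rise was in *dod-23*, at 114 and 124 CPM in *daf-16* double mutants and 73.9 and 74.1 CPM in *ets-4* (log2 fold change 0.71, standard error 0.10, adjusted p = 0.0190 from edgeR). The fall was in the lysozyme gene *lys-10*, with 2 and 21 counts in *daf-16* double mutants and 30 and 283 counts in *ets-4* (log2 fold change -3.84, standard error 0.49, adjusted p = 0.0162 from edgeR). Replicate 2 was several times higher than replicate 1 in both strains. The yolk protein genes *vit-2* and *vit-5* of this list were at -0.08 and -0.16 and did not pass.

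Replicates also lay far apart in 2 further members that did not pass, here with replicate 1 the higher. The gene *pud-3* was at 16.7 and 0.849 CPM in *daf-16* double mutants and 179 and 6.15 CPM in *ets-4*, and *pud-4* was at 6.75 and 0.193 CPM in *daf-16* double mutants and 65.5 and 2.32 CPM in *ets-4*. Their log2 fold changes were -3.15 and -3.18 (adjusted p = 0.115 and 0.0884 from edgeR). In both genes each double mutant library was below its same-numbered partner, while replicate 1 of the double mutant was above replicate 2 of *ets-4*.

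The insulin pathway itself had no member past the test. Of 22 genes tested by edgeR, 0 were called, 11 had an unadjusted p under 0.05, 18 were below 0 and the median was -0.22. Over all 15405 genes tested, 3712 had such a p and 7537 were below 0. For 17 of the 24 pathway genes in the count table, both double mutant libraries were below both *ets-4* libraries. The same held for 25.9% of all genes tested. DESeq2 called 3 of the 22, and over all 15405 genes it called 939 higher and 262 lower. The insulin receptor gene *daf-2* was at 71.2 and 122 CPM in *daf-16* double mutants and 133 and 131 CPM in *ets-4*, a log2 fold change of -0.45 (adjusted p = 0.304 from edgeR). The phosphatase gene *daf-18* and the kinase gene *akt-1* came closest to the threshold, at -0.42 and -0.32 (adjusted p = 0.0589 and 0.0560 from edgeR). Of 21 insulin-like peptide genes tested, which encode ligands of the receptor, 0 passed with edgeR or DESeq2, 6 had an unadjusted p under 0.05 and their median was 0.02.

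Iron handling genes, which the study is about at 4 °C, gave 0 calls by edgeR of 14 tested at 20 °C (1 at an unadjusted p under 0.05 and 1 by DESeq2), with a median of 0.15. The ferritin gene *ftn-1* was at 0.342 and 0.232 CPM in *daf-16* double mutants and 0.537 and 0.648 CPM in *ets-4*. The log2 fold change of -1.05 had a standard error of 0.72 (adjusted p = 0.401 from edgeR), so at this depth a change of *ftn-1* could not be told from its error. The abundant ferritin gene *ftn-2* was at 176 and 197 CPM in *daf-16* double mutants and 154 and 183 CPM in *ets-4* (0.17, adjusted p = 0.302 from edgeR). Of the 7 candidate genes the study selected at 4 °C, *cpt-4*, which encodes a carnitine palmitoyltransferase, rose here (1.19, adjusted p = 0.0327 from edgeR) and the other 6 did not pass. The candidate list was chosen by the study on the 4 °C libraries of these strains.

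Stress defence and metabolism lists otherwise had few members called by edgeR, which over all genes tested called 3.65% higher and 0.695% lower. Among 17 antioxidant genes *sod-3* was the single call by edgeR, with 1 call by DESeq2. Among 19 heat shock and chaperone genes *sip-1* fell and *hsp-12.2* rose, with 2 calls by DESeq2. The small heat shock protein gene *hsp-12.2* was at 54.2 and 55.7 CPM in *daf-16* double mutants and 26.5 and 33 CPM in *ets-4* (log2 fold change 0.91, adjusted p = 0.0190 from edgeR). Among 21 carbohydrate genes *pck-1* was the single call by edgeR, while DESeq2 called 3. Among 31 genes of fat and yolk metabolism *fat-7* rose and *acs-2*, an acyl-CoA synthetase gene, fell by 0.65 (adjusted p = 0.0126 from edgeR), while DESeq2 called 4. The single fall in each list was 5.88% of antioxidant, 5.26% of chaperone, 4.76% of carbohydrate and 3.23% of fat and yolk genes. The rises were 5.26% of chaperone and 3.23% of fat and yolk genes, with 0 in the others. Each share thus rests on 1 gene. The medians of these 4 lists lay between -0.07 and 0.09.

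Of 36 innate immunity genes tested, 4 fell (11.1%) and 2 rose (5.56%), against 0.695% and 3.65% over all genes, with a median of 0.07. The falls were in *lys-10*, *irg-4*, *lys-7* and *spp-1*, and the rises in *thn-2* and the saposin-like gene *spp-8*. The infection response gene *irg-4* was at 1.09 and 0.347 CPM in *daf-16* double mutants and 5.94 and 1.65 CPM in *ets-4* (log2 fold change -2.34, standard error 0.26, adjusted p = 0.00709 from edgeR). It differed between replicates in the same direction in both strains. Levels of 8.94 and 2.86 CPM in the *pqm-1* double mutant showed the same gap.

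Beyond the lists, the steepest falls were found in genes of several kinds. Among the 15 largest falls that passed edgeR and the 2-fold rule together, 8 stayed under 5 CPM in all 8 libraries at 20 °C. The 2 with the smallest adjusted p were better covered. *C32E8.9* (WBGene00016325, chromosome I, 3794556 to 3798068) was at 2.52 and 1.93 CPM in *daf-16* double mutants and 22.2 and 20.8 CPM in *ets-4*. Its log2 fold change was -3.27 (standard error 0.14, adjusted p = 2.04e-05 from edgeR). *C32E8.9* lies on the chromosome that carries *daf-16*.

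The cuticle collagen gene *col-135* (WBGene00000708, chromosome IV, 15129655 to 15131797) was at 5.72 and 6.75 CPM in *daf-16* double mutants and 54.1 and 41.4 CPM in *ets-4*. It was at 46.7 and 42.0 CPM in the *pqm-1* double mutant and 36.8 and 36.8 CPM in wt. The 2 libraries of the *daf-16* double mutant thus stood apart from the other 6. The log2 fold change was -2.89 (standard error 0.15, adjusted p = 7.99e-05 from edgeR). For *C32E8.9* and *col-135* the call held under all 13 alternatives in which they were tested, including the fit without the replicate block, where the adjusted p from edgeR was 0.00117 for each.

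The remaining large falls were in genes with fewer reads. They were *drd-50*, *F21C10.11*, *Y6G8.2*, *F55G11.8*, *dlhd-1*, *K11H12.11*, *R05H10.7* and the carboxylesterase genes *cest-1.1* and *cest-8*, with log2 fold changes between -3.44 and -1.91. *F21C10.11* was at 0.155 and 0.135 CPM in *daf-16* double mutants and 1.48 and 0.917 CPM in *ets-4*, and *Y6G8.2* at 0.715 and 0.598 CPM in *daf-16* double mutants and 3.54 and 5.34 CPM in *ets-4*. In both genes the groups were well apart. Apart from *C32E8.9* and *col-135*, none of the 15 passed without the block, where their adjusted p from edgeR reached 0.471.

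C-type lectins, carbohydrate-binding proteins that are often secreted in immune responses, were examined as a family after the data were seen. Of 127 *clec* genes tested, 4 rose and 5 fell, and the median was 0.12. Among the falls, chosen after their values were seen, *clec-222* was at 7.65 and 9.21 CPM in *daf-16* double mutants and 26.6 and 25 CPM in *ets-4* (log2 fold change -1.59, adjusted p = 0.00202 from edgeR). *clec-218* was at 20.1 and 7.53 CPM in *daf-16* double mutants and 46.3 and 17.7 CPM in *ets-4* (-1.2, adjusted p = 0.00229 from edgeR). The called shares of the family were 3.15% up and 3.94% down, against 3.65% and 0.695% over all genes, so the share that rose was at the background.

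Transcripts of the mitochondrial genome, also grouped after the data were seen, were all on the lower side. Of 12 genes tested, 4 fell (33.3%, against 0.695% over all genes) and 0 rose. All 12 were below 0 in edgeR, with a median log2 fold change of -1.06. Their summed level was 3132 and 5498 CPM in *daf-16* double mutants and 7902 and 8632 CPM in *ets-4*. The *pqm-1* double mutant had 2749 and 3937 CPM and wt had 4537 and 2666 CPM, so the *ets-4* libraries were the ones that stood above the other strains. The NADH dehydrogenase subunit gene *ND6* was at 19.8 and 19 CPM in *daf-16* double mutants and 39.7 and 47.9 CPM in *ets-4* (log2 fold change -1.15, standard error 0.11, adjusted p = 0.00387 from edgeR), and *ND1* fell by 0.43. At 4 °C 11 of the 12 were called lower, against 2.11% of all genes tested there.

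The largest rises were in genes with very few reads in *ets-4*. Of the 15 largest, 12 had 6 or fewer counts in each *ets-4* library and 10 stayed under 5 CPM in all 8 libraries. The collagen gene *col-168* had 10 and 22 counts in *daf-16* double mutants and 0 and 0 in *ets-4*. Against a floor of 3 counts over both *ets-4* libraries, it was at least 9.70-fold higher. The uncharacterised gene *C17C3.6* had 8 and 10 counts in *daf-16* double mutants and 0 and 0 in *ets-4*, which makes it at least 5.46-fold higher.

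The others of this group had a few reads in *ets-4* as well. *abu-15* had 9 and 30 counts in *daf-16* double mutants and 0 and 1 in *ets-4*, a ratio of 35.5 after scaling for library size, with a 95% interval of 6.0 to 1437 that covers counting error alone. *nspb-6*, *K07F5.17*, *grl-21*, *col-7*, *marc-1*, *fipr-7*, *C35D10.3* and *T25E4.1* were similar, with at most 0.134 CPM in *ets-4*. The collagen gene *col-146* had 1.24 and 3.51 CPM in *daf-16* double mutants, against 0 and 0.268 CPM in *ets-4*. In every one of the 15 genes, both libraries of the *pqm-1* double mutant were above both wt libraries as well. In these genes the high level was thus not limited to the *daf-16* double mutant. The share of all genes tested with this order was not computed, so the count alone carries little weight.

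The best covered of the 15 was the collagen gene *col-147*, at 8.30 and 17 CPM in *daf-16* double mutants and 0.568 and 1.92 CPM in *ets-4*. The *pqm-1* double mutant had 8.62 and 43.4 CPM, and wt had 0.241 and 0.940 CPM. Both double mutants were above both *ets-4* and wt, with the largest gap between replicates in the *pqm-1* double mutant. The log2 fold change was 3.53 (standard error 0.37, adjusted p = 0.0190 from edgeR). *decr-1.2*, named for a dienoyl-CoA reductase, was at 2.77 and 3.49 CPM in *daf-16* double mutants and 0.189 and 0.514 CPM in *ets-4*.

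Cuticle collagens were a large group among the rises. The cuticle is built by the epidermis from many collagens, each made at set times before a moult or in the adult. Of 118 *col* genes tested, a family grouped after the data were seen, 28 rose (23.7%) and 2 fell (1.69%). The shares over all genes were 3.65% and 0.695%. The median log2 fold change of the 118 *col* genes was 1.53. DESeq2 called 53 of them in either direction, and over all 15405 genes it called 939 higher and 262 lower. Their summed level was 31410 and 28230 CPM in *daf-16* double mutants and 21354 and 21010 CPM in *ets-4*. The *pqm-1* double mutant had 26441 and 26825 CPM and wt 17195 and 19616 CPM, so this sum was highest in the *daf-16* double mutant. In the direct test between the double mutants, 0 *col* genes were called higher in the *daf-16* double mutant and 1 lower.

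The rising collagens ranged from 0.43 to 7.17 on the log2 scale and differed widely in level. The abundant adult collagen gene *col-19* was at 1977 and 1905 CPM in *daf-16* double mutants and 1123 and 1262 CPM in *ets-4* (log2 fold change 0.73, standard error 0.11, adjusted p = 0.0219 from edgeR), and *col-140* rose by 0.53. Rises of this size were also seen for *col-124* and *col-20*, both named after their values were seen, at 0.77 and 0.59. Others rose steeply from a lower level, such as *col-81*, *col-139* and *col-129*, also named after their values were seen. Some lay between, such as *col-142* at 1.64, and *col-166* rose by 0.86 at a low level, both named in the same way. *col-81* was at 239 and 217 CPM in *daf-16* double mutants and 19.8 and 29.7 CPM in *ets-4* (log2 fold change 3.30, standard error 0.41, adjusted p = 0.0375 from edgeR). The *pqm-1* double mutant had 167 and 409 CPM of *col-81*, a range that covers both *daf-16* double mutant libraries. In all 28 called collagens both double mutant libraries were above both *ets-4* libraries, as in 23.9% of all genes tested and 555 of the 562 called rises, so this adds little to the call. Collagen genes are similar in sequence, and since the authors kept uniquely mapped reads alone, their levels are uncertain where copies are near-identical.

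Sperm transcripts rose together with the collagens. *C. elegans* hermaphrodites make sperm at the end of larval growth and then switch to oocytes, so sperm transcripts decline in young adults. Of 34 sperm markers tested, 7 rose (20.6%, against 3.65% over all genes) and 0 fell. All 34 were above 0 in edgeR, with a median log2 fold change of 2.77 against 0.01 over all genes. DESeq2 called 28 of them, and over all 15405 genes it called 939 higher and 262 lower. The calls were in the major sperm protein genes *msp-19*, *msp-36*, *msp-55*, *msp-56* and *msp-77*, in *ssp-9* and in *spe-9*, which encodes a sperm surface protein needed for fertilization. *ssp-9* (WBGene00006038, near a second gene with the same symbol) was at 3.26 and 4.11 CPM in *daf-16* double mutants and 0.189 and 0.671 CPM in *ets-4* (log2 fold change 3.30, standard error 0.44, adjusted p = 0.0190 from edgeR).

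The summed level of the sperm list was 350 and 404 CPM in *daf-16* double mutants and 47.6 and 92.0 CPM in *ets-4*. It reached 158 and 607 CPM in the *pqm-1* double mutant, and wt had 16 and 67.5 CPM. Replicate 2 was the higher in each of the 4 strains, and the *pqm-1* double mutant covered the whole range of the *daf-16* double mutant. Whole animals were sequenced, so more cells of a type and more RNA per cell cannot be told apart, and *msp* genes are near-identical copies. Sperm transcripts were higher in the same strains as the rising genes in general, and their part in the other rises was not tested.

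**Figure D3:**
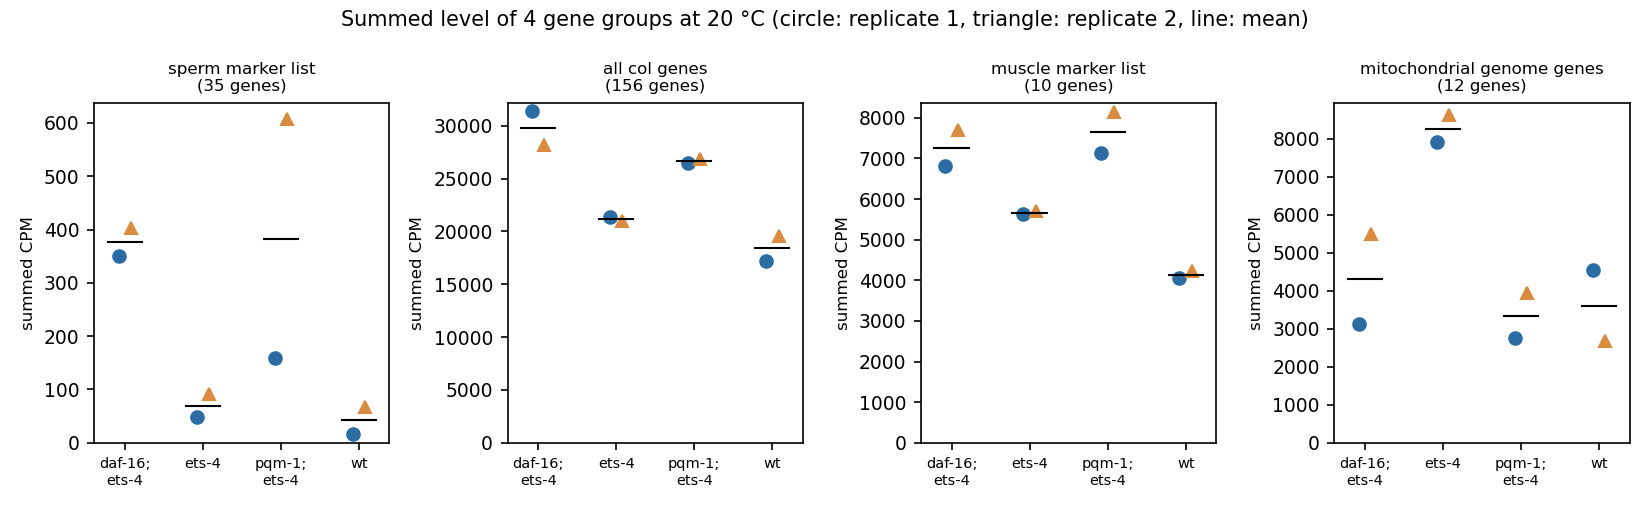
Summed CPM at 20 °C (y axis, from 0) of the sperm marker list, all *col* genes, the muscle marker list and the genes of the mitochondrial genome, in the *daf-16* double mutant, *ets-4*, the *pqm-1* double mutant and wt from left to right, with circles for replicate 1, triangles for replicate 2 and lines for the mean of both. Sperm, collagen and muscle sums are higher in the *daf-16* double mutant than in *ets-4*, and the mitochondrial sum is lower at 3132 and 5498 CPM against 7902 and 8632 CPM.

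Markers of other cell types differed by smaller amounts. Of 10 epidermis markers 3 rose (30%, median 0.55), and of 10 muscle markers 3 rose (30%, median 0.37). Of 5 pharynx markers tested 3 rose (60%, median 0.80), and of 9 intestine markers 3 rose (33.3%, median 0.20). In each list 0 were called lower. Over all genes tested 3.65% rose and 0.695% fell. The intestine markers were mixed, with 5 above 0 and 4 below. The tropomyosin gene *lev-11* was at 987 and 1013 CPM in *daf-16* double mutants and 732 and 774 CPM in *ets-4* (log2 fold change 0.43, adjusted p = 0.0376 from edgeR). The pharyngeal myosin gene *myo-1* was at 158 and 236 CPM in *daf-16* double mutants and 103 and 123 CPM in *ets-4* (0.80, adjusted p = 0.0412 from edgeR). In the intestine the rises were in the aspartic protease gene *asp-1* (0.61), the microvillar actin gene *act-5* (0.56) and the intermediate filament gene *ifb-2* (0.53).

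Oocyte, embryo, germline and neuron lists had no member past the test. Of 14 oocyte and early embryo markers, 0 were called by edgeR or DESeq2, 2 had an unadjusted p under 0.05 and 14 were below 0, with a median of -0.20. Their summed level was 10501 and 9453 CPM in *daf-16* double mutants and 12022 and 10794 CPM in *ets-4*. The 10 germline markers had a median of -0.03 and the 9 tested later embryo markers -0.19, with 0 calls each by edgeR or DESeq2 and 1 gene each at an unadjusted p under 0.05. The 12 neuron markers had a median of 0.19, 0 calls by either tool and 2 genes at an unadjusted p under 0.05. Since CPM are relative, the lower oocyte share and the higher shares of epidermis and muscle are not independent of each other.

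The libraries at 4 °C allowed the same contrast in samples that the 20 °C test did not use. Over the 14571 genes tested there, 254 were higher in the *daf-16* double mutant (1.74%) and 308 were lower (2.11%). Of the 107 genes that fell at 20 °C, 105 were tested at 4 °C. There 64 of them were called lower (61.0%), 0 higher, and 100 had a negative log2 fold change, with a median of -0.77. Of the 562 genes that rose at 20 °C, 547 were tested at 4 °C. There 59 were called higher (10.8%), 0 lower, and 532 were positive, with a median of 0.89. Over all genes the median at 4 °C was 0.01.

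Among the individual falls some were of similar size in both sets of libraries and others were not. *lys-7* was at 23.1 and 52.8 CPM in *daf-16* double mutants and 124 and 211 CPM in *ets-4* at 4 °C, a log2 fold change of -2.18, and *col-135* was at -2.75 and *C32E8.9* at -2.63. *mtl-1* was at 0.288 and 0.381 CPM in *daf-16* double mutants and 10.6 and 8.23 CPM in *ets-4* at 4 °C (-4.77, adjusted p = 6.75e-05 from edgeR), against -2.95 at 20 °C. *sod-3* was at -1.73 at 20 °C and -3.04 at 4 °C, and *lys-10* at -3.84 and -2.44. Of the 15 largest falls, 13 were tested at 4 °C and 10 were called lower there. Of the 15 largest rises, 10 were tested, 0 were called by edgeR and 4 had an unadjusted p under 0.05.

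**Figure D4:**
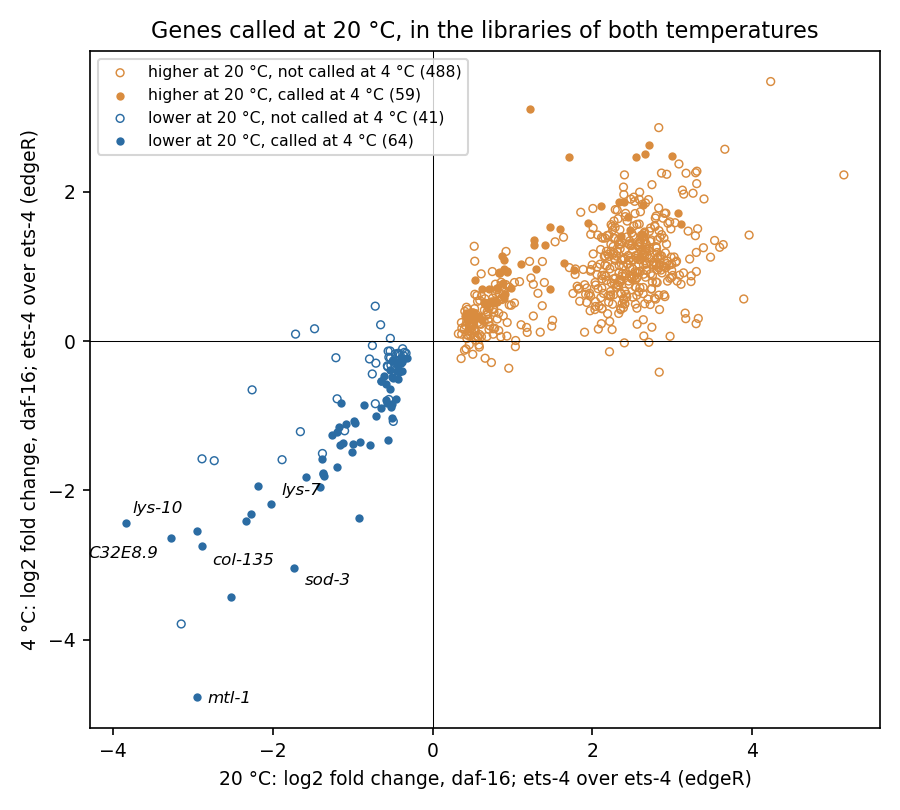
Log2 fold changes from edgeR (*daf-16* double mutant over *ets-4*) at 20 °C (x axis) and at 4 °C (y axis) for the genes that passed the test at 20 °C, with filled points for those that also passed at 4 °C. Of the 105 falls tested in both, 64 passed at 4 °C, and of the 547 rises, 59 did.

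Whether the effect of losing *daf-16* differed between temperatures was tested by an interaction term over all 16 libraries. Of 15775 genes tested, the log2 fold change was higher at 20 °C than at 4 °C for 8 (0.0507%) and lower for 1 (0.00634%), with 1197 at an unadjusted p under 0.05. The kinase gene *akt-2* of the insulin pathway was at 8.27 and 9.42 CPM in *daf-16* double mutants and 10.6 and 12.295 CPM in *ets-4* at 20 °C. At 4 °C it was at 23.8 and 30.9 CPM in *daf-16* double mutants and 70.1 and 93.6 CPM in *ets-4*. Its log2 fold change of -0.35 at 20 °C compared with -1.57 at 4 °C, a difference of 1.22 (standard error 0.15, adjusted p = 0.0207 from edgeR).

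The cystatin gene *cpi-1*, a cysteine protease inhibitor, fell at both temperatures, by 0.56 at 20 °C and by 1.33 at 4 °C. The aldehyde dehydrogenase gene *alh-5* rose by 0.74 at 20 °C and was at -0.29 at 4 °C, where it did not pass. Of the 9 genes, 2 were called at 20 °C and 8 at 4 °C. Without *ets-4* replicate 1 or replicate 2 at 20 °C, and without *ets-4* replicate 2 at 4 °C, 0 genes passed the interaction test by edgeR. With the other libraries at 4 °C left out in turn, 2 to 4 genes were higher and 0 to 1 lower. Without replicate 2 of the *daf-16* double mutant at 20 °C, 93 were higher and 185 lower.

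**Figure D5:**
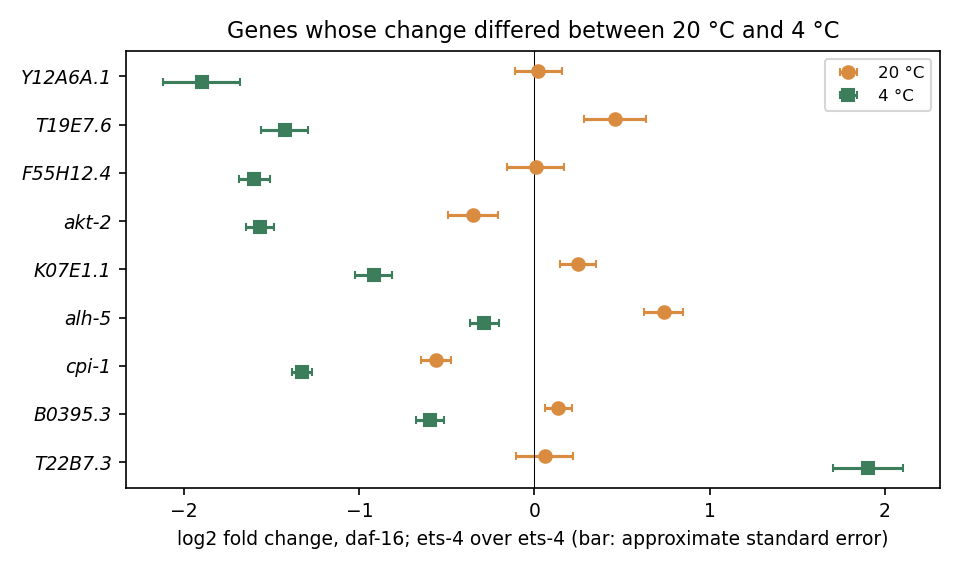
Log2 fold change (x axis, *daf-16* double mutant over *ets-4*, bars of 1 approximate standard error) at 20 °C (orange circles) and 4 °C (green squares) for the 9 genes, listed down the y axis, whose change differed between temperatures. The 20 °C value lies to the right of the 4 °C value for 8 genes and to the left for *T22B7.3*, at 0.06 and 1.90.

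A direct test between the double mutants at 20 °C showed where their levels differed, whichever of them stood apart from *ets-4*. Of 15405 genes, 11 were higher in the *daf-16* double mutant (0.0714%) and 29 were lower (0.188%). Only 2 of the 11 were also called higher against *ets-4*, and 18 of the 29 were also called lower. In some of the others the *pqm-1* double mutant was the one apart, such as *ucp-4*, named after its values were seen. It was at 4.58 and 5.29 CPM there, 22.3 and 20.3 CPM in *daf-16* double mutants and 21.3 and 23.6 CPM in *ets-4*. This comparison shares the *daf-16* double mutant libraries with the one against *ets-4*. Without replicate 1 of the *daf-16* double mutant 57 genes were higher and 125 lower, without its replicate 2 it was 47 and 246, and without replicates 1 and 2 of the *pqm-1* double mutant, left out in turn, 35 and 266 and then 10 and 17. *C32E8.9* was lower by a log2 fold change of -3.10, *col-135* by -2.83, *lys-7* by -2.07 and *mtl-1* by -3.57 (adjusted p = 2.58e-05, 6.22e-05, 0.000803 and 0.0210 from edgeR). *dod-23* was higher by 0.89 (adjusted p = 0.00756 from edgeR).

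For the rises the levels of the double mutants overlapped. The median of the 562 genes was 2.98 and 4.59 CPM in *daf-16* double mutants and 1.83 and 7.19 CPM in the *pqm-1* double mutant, against 0.241 and 0.813 CPM in wt. *col-147* was at a difference of -0.76 and *msp-55* at 0.13 between the double mutants (adjusted p = 0.703 and 0.997 from edgeR). The gene *T19H12.6* (chromosome V, 4874233 to 4877687), named after its values were seen, went against this. It was at 14.6 and 11.3 CPM in *daf-16* double mutants and 2.24 and 2.21 CPM in *ets-4*, with 2.00 and 2.15 CPM in the *pqm-1* double mutant. The log2 fold change was 2.55 against *ets-4* and 2.61 against the *pqm-1* double mutant (adjusted p = 0.00133 and 0.000446 from edgeR).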

How the data were processed

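The authors aligned stranded poly-A reads of 50 cycles to WBcel235 by STAR with up to 3 mismatches, kept those that mapped uniquely, and deposited raw counts of reads overlapping exons per gene, without normalization. Use of strand in counting and the annotation release are not given in the sources used here, so overlapping genes are uncertain. Symbols and positions came from the Ensembl release 115 annotation. Where a gene has no symbol it is not named.

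In R 4.3.3, counts of the 8 libraries at 20 °C (all 4 strains, which share 1 estimate of the spread) were tested with the edgeR 4.0.16 quasi-likelihood test with TMM, filterByExpr (minimum count 10, total 15), robust estimation and Benjamini-Hochberg adjustment, with strain and replicate number as terms, leaving 3 residual degrees of freedom. Standard errors are approximate: the size of the log2 fold change over the root of F. The 4 °C contrast used the 8 libraries at 4 °C, and the interaction all 16. For the 2-fold rule, counts were scaled to library totals and 8 was added before log2. The numbers pair the samples: across 8922 genes with a mean over 5 CPM, replicate differences correlated between strains at 20 °C at 0.32 to 0.74 over 6 pairs of strains, and the study compares same-numbered replicates. Labels call them replicates without naming separate cultures, so p-values measure the spread between these samples. No 2 replicates agreed within sampling noise.

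Members and gene lists were chosen with earlier results of these data known. Of 361 list genes, 350 were found. Genes were named from these lists, as the 15 largest rises and 15 largest falls that met both criteria, and as the top interaction genes. Others are marked in the text. One gene that the rule would name is not reported here. The fits were tested on simulated data. Alternatives were other normalizations, filters, library sets, thresholds, pseudocounts and pairings, DESeq2 1.42.0, and leaving out each library. No sequences were printed, and a motif search was not run.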

Additional observations from a re-analysis of the deposited data

Results flagged for a closer look

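The effect of losing *daf-16* in *ets-4* animals differed between 20 °C and 4 °C by edgeR's interaction test for 9 genes. The difference in log2 fold change, 20 °C minus 4 °C, was 1.22 for *akt-2*, 1.02 for *alh-5*, 0.76 for *cpi-1*, 0.73 for *B0395.3*, 1.60 for *F55H12.4*, 1.92 for *Y12A6A.1*, 1.17 for *K07E1.1*, 1.88 for *T19E7.6* and -1.85 for *T22B7.3*. The adjusted p from edgeR was 0.0285 for *B0395.3* and 0.0207 for each of the others. *F55H12.4* was at 0.01 on the log2 scale at 20 °C and -1.60 at 4 °C, where it was at 10.6 and 7.67 CPM in *daf-16* double mutants and 33.2 and 22.9 CPM in *ets-4*. *T22B7.3* was at 3.70 and 7.20 CPM in *daf-16* double mutants and 3.92 and 6.51 CPM in *ets-4* at 20 °C, and at 8.43 and 11.9 CPM in *daf-16* double mutants and 1.79 and 4.00 CPM in *ets-4* at 4 °C. The 4 °C groups did not overlap in either gene. Groups of 2 libraries are too small to test for a library that stands apart.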

How the results depend on the processing

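For the counts of genes higher and lower in the *daf-16* double mutant than in *ets-4* at 20 °C (562 and 107), the fit without the replicate block gave 1 and 3. All 16 libraries with the block gave 1076 and 532, the 4 compared libraries alone 1703 and 282 with the block and 344 and 22 without it, and DESeq2 with the block 939 and 262. A test against a 1.5-fold change gave 3 and 11, and an adjusted p under 0.01 gave 5 and 12. Leaving out each library gave 1 to 1311 and 5 to 976. RLE size factors, library totals, no filter and a stricter filter stayed within 1.5 times. For the 2-fold rule (951 and 39), a pseudocount of 1 gave 1468 and 155, a pseudocount of 32 gave 538 and 19, crossed replicates 630 and 25, a 1.5-fold threshold 1476 and 127, and single pairs 1161 to 1350 and 91 to 183. For the difference between temperatures (8 and 1), the fit without the replicate block gave 0 and 0, no filter 17 and 3, and leaving out each library 0 to 93 and 0 to 185. For the *daf-16* against the *pqm-1* double mutant (11 and 29), the fit without the replicate block gave 4 and 3, RLE size factors 18 and 50, no filter 21 and 55, and leaving out each library 10 to 57 and 17 to 266. With each library left out in turn, the log2 fold change at 20 °C spanned -0.043 to 0.38 for *ets-4*, -0.084 to 0.13 for *Y12A6A.1* and -0.050 to 0.15 for *T22B7.3*, so that signs turned without replicate 2 of the *daf-16* double mutant (*ets-4*, *T22B7.3*) or of *ets-4* (*Y12A6A.1*, *T22B7.3*). None of the 3 had passed the test at 20 °C. A library left out leaves 1 sample in its group, assumed to vary like the others. The cause of these differences was not tested. The fit had 3 residual degrees of freedom, and the largest rises rest on few reads.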

Other observations

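Several smaller groups, chosen after the data were seen, had not been described above. Of 23 tested ground-like and groundhog-like genes (*grl* and *grd*), which encode secreted proteins related to hedgehog-like families, 5 rose (21.7%) and 0 fell, with a median log2 fold change of 0.46, where 3.65% of all genes tested rose and 0.695% fell. Of 19 genes named as myosin light chains, actins or troponins, 8 rose (42.1%), 0 fell and 18 were above 0, with a median of 0.41. At 4 °C 4 of the 19 were called higher, where 1.74% of all genes tested were. The group was taken by gene name and is not limited to muscle. It holds the intestinal actin gene *act-5*, which is among the rises. Of 28 tested *spe* genes, required in spermatogenesis or sperm function, 6 rose (21.4%) and 0 fell. Of 62 cytochrome P450 genes 1 rose and 1 fell (1.61% each), with a median of 0.0055. Of 109 F-box A genes 2 rose and 2 fell (1.83% each), with a median of 0.04. The shares that rose were below the 3.65% of all genes and those that fell above the 0.695%, on 1 or 2 genes each.

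Of the 107 falls, 12 were among 2439 genes tested on chromosome I, which carries *daf-16*, 12 among 2713 on II, 14 among 2337 on III, 23 among 2571 on IV, 24 among 3026 on V and 18 among 2178 on X. The other 4 were among the 12 genes of the mitochondrial genome. Over all 15405 genes tested, 0.695% fell. Tested genes without a position in the annotation are in none of these chromosome totals. A difference between chromosomes was not tested.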
